A study of Homo sapiens with 6 samples.

Results

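The genes described here are 10 transcription factors and chromatin proteins that act in the epithelial to mesenchymal transition (EMT): SNAI1, SNAI2, ZEB1, ZEB2, TWIST1, HMGA1, HMGA2, SOX4, SOX9 and PRRX1. They were chosen by gene symbol, and all 10 were found among the 25737 entries (24462 different symbols) of the read count files. In the EMT, epithelial cells give up their junctions and polarity and take on the migratory, matrix-producing state of mesenchymal cells. Transforming growth factor beta 1 (TGF-β1) is a well known inducer of it in lung epithelium and a central cytokine of pulmonary fibrosis. SMAD proteins carry its signal to the nucleus, where they work with HMGA2, SOX4 and other partners to switch on the genes of the SNAI, ZEB and TWIST factors. SNAI and ZEB proteins are zinc finger repressors that bind E-boxes in the promoters of epithelial genes such as CDH1 (E-cadherin).

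The study measured mRNA by 3′ end sequencing (QuantSeq) in A549 cells, a lung carcinoma epithelial line, and in BEAS-2B cells, an immortalised bronchial epithelial line. Both lines are labelled as wild type and as lung, and both were grown in RPMI1640 with 10% fetal bovine serum. Cells received 0, 1 or 5 ng/mL TGF-β1, and treatment was in RPMI1640 with 1% serum for 48 h. Untreated cells are listed with 0 h of treatment, and their medium is not given in the sources used here. Treated and untreated libraries may therefore differ in serum and time as well as in TGF-β1, and these cannot be told apart. Each of the 6 conditions has 1 library, so no spread between replicates is known. Every ratio compares 2 libraries rather than 2 conditions, the intervals cover counting error only, and no test between conditions was made.

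The libraries held 4120624 to 7841350 counts, and a count of 0 allows a level of up to 0.383 to 0.728 CPM (counts relative to library size). Reads were scaled to the mean library size with trimmed mean of M-values (TMM) factors, which gives normalized counts, and adding 1 and taking log2 gives the ND value. Calling a gene took a fold change (FC) of 2 or more, up or down, together with an ND value of 7 or more (a normalized count of 127) in at least 1 of the 2 libraries compared. Counts were taken at the 3′ ends of transcripts, so levels were compared between libraries and not between genes. In bulk RNA, fewer cells of a type and less RNA per cell cannot be told apart. Of 8 direct TGF-β target genes listed, 7 reached an ND value of 7 in each line at either dose. At 5 ng/mL 6 were called higher in A549 and 7 in BEAS-2B cells, with PMEPA1 at 5.02-fold and 21.8-fold. At 1 ng/mL the numbers were 3 and 7. Over all entries that reached an ND value of 7, 16.1% (A549) and 7.33% (BEAS-2B) were called higher at 5 ng/mL, and 10.9% and 5.66% at 1 ng/mL. Wherever a share called over all entries is given below, it has this base. Shares with an interval apart from 1 are over all entries with a count in either library.

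The untreated BEAS-2B library went against its epithelial label in part. EPCAM was at 0 counts in all 3 BEAS-2B libraries, CDH1 at 2, 0 and 2 counts, and the basal keratins KRT5 and KRT14 at 0 or 1, whereas KRT18 had 1418, 717 and 806 counts. Without TGF-β1 the other epithelial markers KRT7, KRT8, MUC1 and KRT19 had 1063, 372, 108 and 46 counts. The fibroblast markers were mixed in that library, with THY1 at 1160 and PDGFRB at 118 counts but COL1A2 at 20, DCN at 4 and PDGFRA and LUM at 0. In A549 cells CDH1 stood at 640 counts without TGF-β1 and at 30 and 8 counts at 1 and 5 ng/mL. EPCAM, KRT8, KRT18 and KRT19 were also lower in CPM with TGF-β1, but KRT7 went up, at 838, 2627 and 3160 CPM. MUC1 had 4.34, 3.32 and 6.88 CPM, and the sum of the epithelial markers was 6014, 4706 and 5057 CPM. In BEAS-2B cells KRT7 had 250, 644.5 and 561.8 CPM and that sum was 707.5, 848.1 and 810.3 CPM. Of the lung lineage markers SFTPC was at 0, and SFTPB had up to 2 and NKX2-1 up to 8 counts. NAPSA had 1, 12 and 9 counts in A549 and 0 in BEAS-2B cells. Among the smooth muscle markers ACTA2 had 139, 458 and 351 counts in A549 and 63, 69 and 62 in BEAS-2B cells. CNN1 had 0, 21 and 25 and then 43, 118 and 168, MYH11 had 46, 57 and 21 and then 72, 31 and 12, and DES was at 0. Counts here are not scaled, and the libraries differ in depth. Relative to library size, A549 cells had 33.5, 58.4 and 57.5 CPM of ACTA2 and 11.1, 7.27 and 3.44 CPM of MYH11. The endothelial markers VWF and CDH5 were at 0 throughout, with PECAM1 at up to 4 counts. Of the leukocyte markers CD3E was at 0, PTPRC had up to 4 counts and CD68 had 4 to 73.

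The promoters below mark E-boxes of a form that SNAI and ZEB proteins bind, in a member and in 3 epithelial genes. Levels of 2 of these genes, ELF3 and JUP, are described later. Whether the proteins act at these sites was not tested. The E-box searched was CAGGTG or its reverse complement CACCTG, which covers both strands, in RefSeq windows (GRCh38.p14) of 300 bases, from 250 before to 50 after a transcript start. Sequences run 5′ to 3′ on the strand of the gene and capitals mark the E-boxes. They come from ZEB1 (chr10:31318966-31319265, + strand), from ELF3 (chr1:202010337-202010636, + strand), an epithelial ETS factor, from JUP (chr17:41785927-41786226, − strand), the junction protein plakoglobin, and from CRB3 (chr19:6464021-6464320, + strand), a polarity protein.
ZEB1: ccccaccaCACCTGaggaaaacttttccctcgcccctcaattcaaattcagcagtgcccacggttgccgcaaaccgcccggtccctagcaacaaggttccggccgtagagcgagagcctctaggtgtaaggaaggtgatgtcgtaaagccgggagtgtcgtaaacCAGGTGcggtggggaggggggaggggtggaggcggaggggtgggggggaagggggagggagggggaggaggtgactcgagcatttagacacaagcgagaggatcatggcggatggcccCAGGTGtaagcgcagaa
ELF3: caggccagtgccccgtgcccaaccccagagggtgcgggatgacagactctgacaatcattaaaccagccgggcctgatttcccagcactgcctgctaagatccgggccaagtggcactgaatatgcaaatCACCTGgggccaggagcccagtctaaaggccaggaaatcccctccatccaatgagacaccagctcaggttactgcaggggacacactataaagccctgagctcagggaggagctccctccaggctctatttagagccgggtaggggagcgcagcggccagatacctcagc
JUP: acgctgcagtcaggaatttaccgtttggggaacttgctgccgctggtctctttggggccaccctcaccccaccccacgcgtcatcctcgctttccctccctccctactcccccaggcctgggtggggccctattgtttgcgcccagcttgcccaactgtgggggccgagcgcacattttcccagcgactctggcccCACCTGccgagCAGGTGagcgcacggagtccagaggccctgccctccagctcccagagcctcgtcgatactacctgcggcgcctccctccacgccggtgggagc
CRB3: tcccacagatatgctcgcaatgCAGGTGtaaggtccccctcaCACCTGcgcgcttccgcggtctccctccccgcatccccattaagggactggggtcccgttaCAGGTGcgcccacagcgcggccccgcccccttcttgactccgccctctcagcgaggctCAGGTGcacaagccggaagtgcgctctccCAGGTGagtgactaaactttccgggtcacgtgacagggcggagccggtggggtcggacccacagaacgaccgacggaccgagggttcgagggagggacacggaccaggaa

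The ZEB1 window held 3 E-boxes, whose first bases lay at -242, -85 and 34 relative to the start. In CRB3 there were 5 of them, in JUP 2 and in ELF3 1. JUP held an E-box in 1 of its 2 windows. CLDN1 and CLDN4, from the same list as JUP, each had 1 window, with 0 E-boxes. Over the epithelial transcription factors, which include ELF3, 4 of 11 windows (36.4%) held an E-box. Over the members, 5 of 10 genes matched the promoter table, and 3 of their 12 windows (25%) held an E-box: 2 of 7 for ZEB1 and 1 of 2 for HMGA1, with none in the windows of ZEB2, SOX4 and PRRX1. Across all promoters 7231 of 35116 windows (20.6%) held it. Of 18 epithelial genes known as repressed by SNAI and ZEB proteins, 11 matched, and 11 of their 15 windows (73.3%) held an E-box; since that list was drawn up for such repression, its share is not independent of the motif. A match is a description of letters and not of binding. SNAI1, SNAI2, TWIST1, HMGA2, SOX9 and CDH1 had no entry.

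At 1 ng/mL, 2 members were called higher and 0 lower in A549 cells, against 10.9% and 12.6% of the 7007 entries that reached the minimum level. At 5 ng/mL the A549 count was again 2 higher and 0 lower, beside 16.1% higher and 17.1% lower of 7115 entries. BEAS-2B cells had 2 members higher and 1 lower at 1 ng/mL (5.66% and 9.13% of 6681 entries) and the same numbers at 5 ng/mL (7.33% and 11.6% of 6735 entries). The minimum was reached by 5 members in A549 and by 6 in BEAS-2B cells. SOX4 was called in all 4 comparisons, HMGA2 in 3, SOX9 in 2 and ZEB1 in 1. SNAI1, SNAI2, TWIST1 and PRRX1 were below the minimum in every library, so they could not be called whatever their ratio.

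By the counting interval alone, 4 members were higher and 2 lower than the control in A549 cells at each dose, and 5 were higher and 1 lower in BEAS-2B cells at each dose. An interval apart from 1 was common among all entries, at 49.3% (1 ng/mL) and 54.3% (5 ng/mL) for the A549 line and at 46.1% and 49.2% for the BEAS-2B line. The median log2 FC over the 10 members at 5 ng/mL was 0.56 in A549 and 0.36 in BEAS-2B cells, with 0.03 and 0.00 over the 11539 entries with a mean normalized count of at least 20. Both doses of a line share its untreated library.

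**Figure D1:**
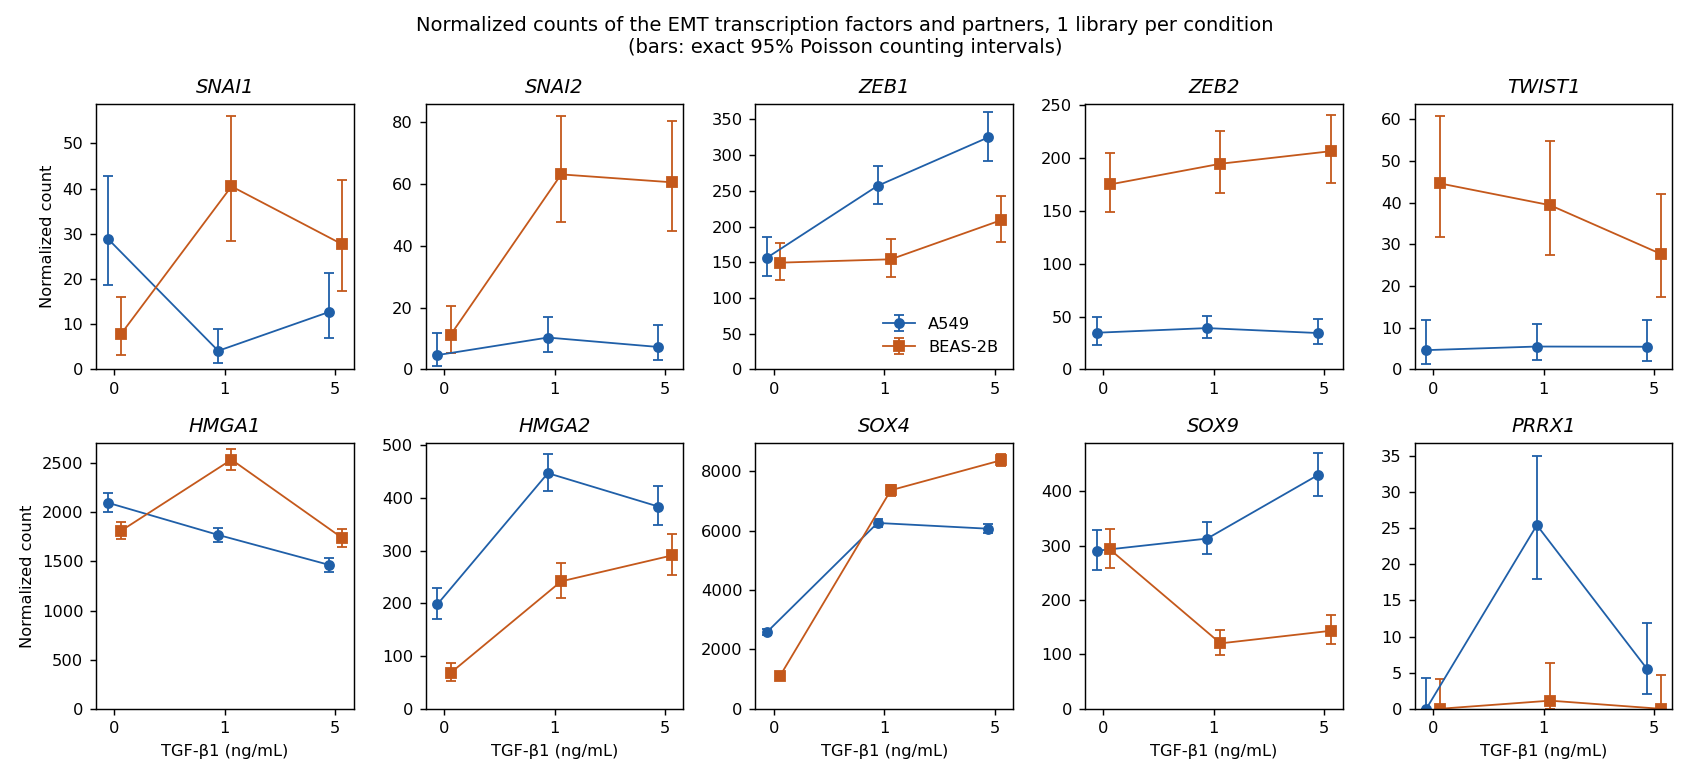
Normalized counts of each member (vertical axes, separate scales) at 0, 1 and 5 ng/mL TGF-β1 in A549 (circles) and BEAS-2B cells (squares); points are single libraries and bars are exact 95% Poisson counting intervals. SOX4 and HMGA2 were above the control at both doses in both lines, SNAI1 ran in opposite directions, and PRRX1 stood out in 1 A549 library.

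SOX4, a high mobility group box factor that is induced by TGF-β and promotes expression of other EMT genes, had the highest ratios among the called members. Its normalized counts were 2583, 6256 and 6062 across 0, 1 and 5 ng/mL in A549 cells, from 2229, 9106 and 6682 reads. In BEAS-2B cells they were 1119, 7357 and 8369, from 1003, 6538 and 6644 reads. All 4 treated libraries therefore lay above both untreated ones. The rise was 2.42-fold (95% interval 2.31 to 2.54) and 2.35-fold (2.24 to 2.46) in A549 cells given 1 and 5 ng/mL. The BEAS-2B rise was 6.58-fold (6.15 to 7.04) and 7.48-fold (7.0 to 8.0). The A549 and BEAS-2B intervals did not overlap at either dose.

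Without TGF-β1, SOX4 was 2.31-fold lower in BEAS-2B than in A549 cells (2.14 to 2.49), whereas both treated BEAS-2B libraries were above the treated A549 ones. Only 55 of 6735 entries (0.817%) had a rise at least as large in BEAS-2B cells at 5 ng/mL, compared with 771 of 7115 (10.8%) in A549 cells. Between the doses, the A549 libraries did not differ beyond counting error (ratio 0.969, interval 0.939 to 1.00), and the BEAS-2B ratio of 5 to 1 ng/mL was 1.14 (1.10 to 1.18).

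SOX9, a related factor that marks progenitor cells of the lung and works with SNAI2 in other epithelia, ran apart between the lines. In A549 cells its normalized counts were 291, 313 and 430. The BEAS-2B libraries had 293, 120 and 144. The untreated libraries thus stood at the same level (ratio 1.01, 0.845 to 1.20), with the treated BEAS-2B libraries below and the treated A549 libraries at or above it. SOX9 fell 2.44-fold (1.94 to 3.08) and 2.04-fold (1.63 to 2.57) in BEAS-2B cells. In A549 cells the ratio was 1.08 (0.922 to 1.26) at 1 ng/mL and 1.48 (1.27 to 1.73) at 5 ng/mL; scaled by total counts the 1 ng/mL value changed sign, to -0.06 on the log2 scale. The call in BEAS-2B cells at 5 ng/mL was narrow, with a log2 FC of -1.03 that was -0.96 under upper quartile scaling. The intervals of the lines did not overlap at either dose.

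HMGA2, an architectural chromatin protein that binds AT-rich DNA and works with SMADs at the SNAI1 promoter, was higher in every treated library than in the control of its line. Its normalized counts were 198, 447 and 384 in A549 cells and 68.0, 242 and 291 in BEAS-2B cells. The A549 values gave a rise of 2.26-fold (1.91 to 2.69) at 1 ng/mL and a ratio of 1.94 (1.62 to 2.33) at 5 ng/mL, just under the FC limit. Removing the trend of the FC over transcript GC content, an alternative chosen after the data were seen, put the latter at 1.21 on the log2 scale in place of 0.95, past the limit. In BEAS-2B cells HMGA2 rose 3.56-fold (2.66 to 4.81) and 4.28-fold (3.21 to 5.77), and 110 of 6735 entries (1.63%) rose at least as much at 5 ng/mL. The intervals of the lines were apart at 5 ng/mL and overlapped at 1 ng/mL. From 1 to 5 ng/mL the ratio was 0.858 (0.757 to 0.971) in A549 and 1.20 (0.995 to 1.46) in BEAS-2B cells.

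HMGA1, the second member of the family, did not follow HMGA2. It had 2097, 1769 and 1465 normalized counts in A549 cells and 1810, 2535 and 1739 in BEAS-2B cells. In A549 cells both treated libraries were lower than the control, with ratios of 0.844 (0.794 to 0.896) and 0.699 (0.653 to 0.748). BEAS-2B cells had a ratio of 1.40 (1.31 to 1.49) at 1 ng/mL and of 0.961 (0.894 to 1.03) at 5 ng/mL. None of these reached an FC of 2, and HMGA1 was the member that moved most with GC content (61.3% in its transcript), to a log2 FC of -1.0 in A549 cells at 5 ng/mL. HMGA1 also has pseudogene copies that can share its reads; 1 such entry was listed, HMGA1P7, at 0 counts in all libraries.

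**Figure D2:**
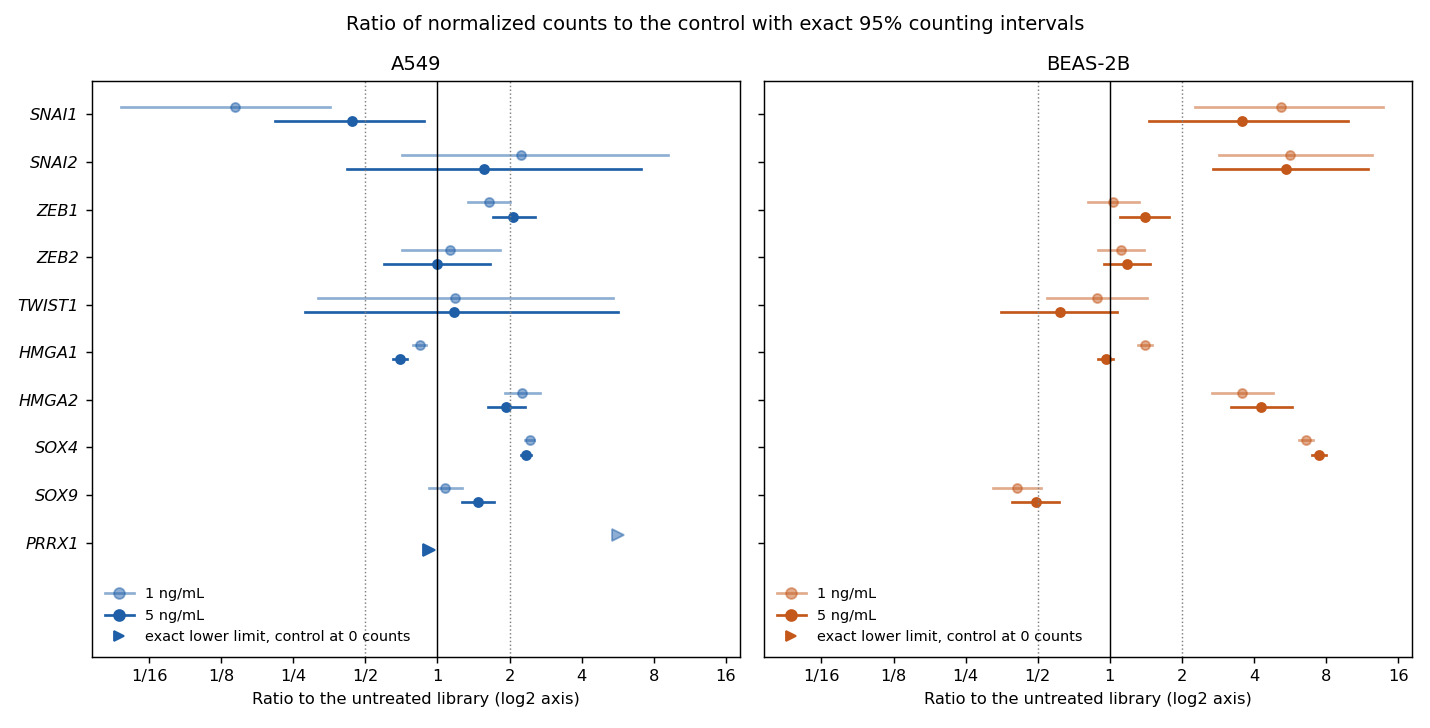
Ratio of the normalized count at 1 (pale) or 5 ng/mL (dark) to the untreated library for each member, with exact 95% counting intervals on a log2 axis; triangles are the exact lower limits for PRRX1, whose control had 0 counts, and dotted lines mark an FC of 2. SOX4 had the narrowest intervals outside the dotted lines in both lines, and SNAI1 lay on opposite sides of 1 in A549 and BEAS-2B cells.

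Within a library the share of a gene in a pair does not depend on the scaling. HMGA2 took 8.63%, 20.2% and 20.8% of the HMGA1 and HMGA2 counts in A549 cells, and 3.62%, 8.71% and 14.3% in BEAS-2B cells. The treated intervals lay above the untreated one in both lines, and only in BEAS-2B cells were the intervals of the doses apart (7.63% to 9.89% and 12.7% to 16.1%). SOX9 took 10.1%, 4.77% and 6.62% of the SOX4 and SOX9 counts in A549 cells. The corresponding shares in BEAS-2B cells were 20.8%, 1.61% and 1.69%. In both lines the SOX pair was thus weighted more to SOX4 with TGF-β1 than without it.

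**Figure D3:**
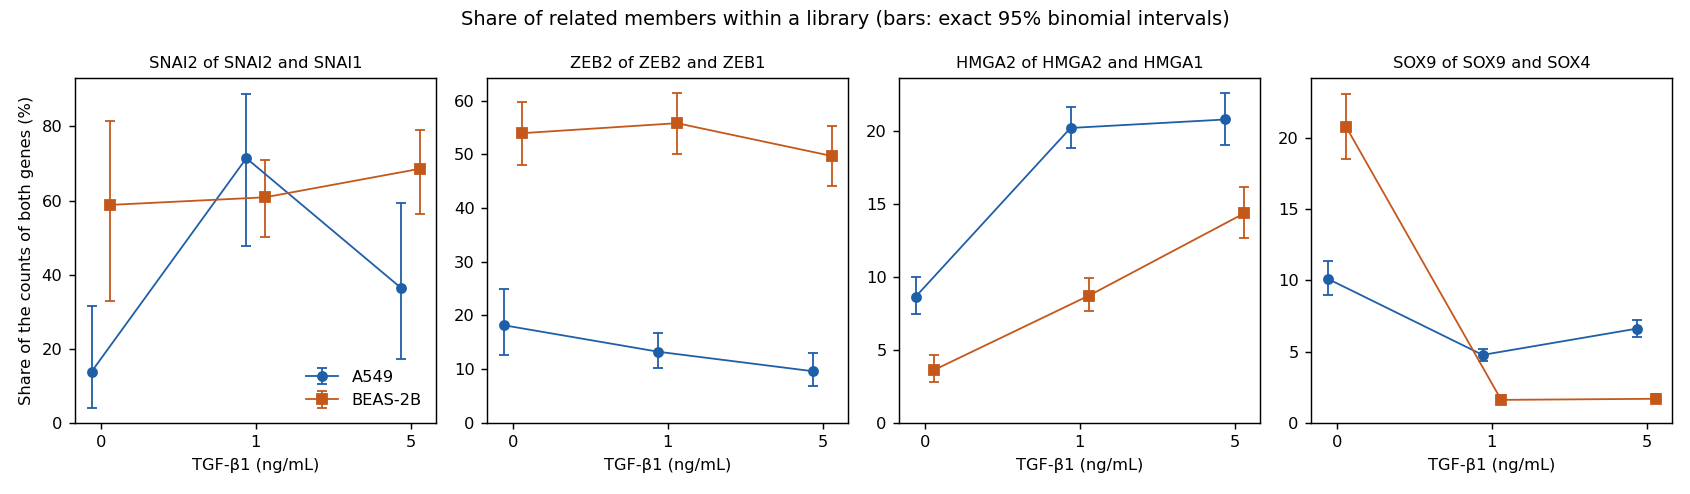
Share of SNAI2, ZEB2, HMGA2 and SOX9 in the counts of their pair (vertical axes, percent) at 0, 1 and 5 ng/mL in A549 (circles) and BEAS-2B cells (squares), with exact 95% binomial intervals. The HMGA2 share was higher and the SOX9 share lower in all treated libraries than in the control of the same line.

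ZEB1, a repressor of CDH1 and of the miR-200 family, had 156, 257 and 325 normalized counts across the A549 doses. The BEAS-2B libraries had 150 (149.5 before rounding), 154 and 209. The A549 levels were ordered by dose, with each step larger than counting error, whereas in BEAS-2B cells the 0 and 1 ng/mL libraries could not be separated. ZEB1 rose 2.08-fold (1.70 to 2.55) in A549 cells at 5 ng/mL, which 1072 of 7115 entries (15.1%) equalled or passed, and was 1.64-fold higher (1.35 to 2.02) at 1 ng/mL. The call was lost when libraries were scaled by total counts (log2 FC of 0.85 in place of 1.05). In BEAS-2B cells the ratios were 1.03 (0.807 to 1.32) and 1.40 (1.11 to 1.77). The lines were apart at 1 ng/mL and overlapped at 5 ng/mL. ZEB1-AS1, the antisense entry, had 1, 8 and 19 counts in A549 and 4, 15 and 6 in BEAS-2B cells; the strand setting of the counting is not given in the sources used here, so reads of overlapping sense and antisense genes cannot be told apart.

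ZEB2, the second ZEB repressor, separated the cell lines rather than the doses. It had 34.8, 39.2 and 34.5 normalized counts in A549 cells and 175, 195 and 207 in BEAS-2B cells. All BEAS-2B libraries lay above all A549 ones, and no neighbouring doses within a line differed beyond counting error. At 5 ng/mL the ratio to the control was 0.992 (0.598 to 1.66) in A549 and 1.18 (0.942 to 1.48) in BEAS-2B cells. ZEB2 made up 18.2%, 13.2% and 9.60% of the ZEB counts in A549 cells, compared with 54.0%, 55.8% and 49.7% in BEAS-2B cells. ZEB2-AS1 had at most 5 counts.

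SNAI1 (Snail), the zinc finger repressor that responds early to TGF-β, was read at low depth. It had 25, 6 and 14 counts in A549 cells and 7, 36 and 22 in BEAS-2B cells, or 29, 4.12 and 12.7 and then 7.81, 40.5 and 27.7 normalized counts. The untreated library was the highest of the A549 cells and the lowest of the BEAS-2B cells. In A549 cells SNAI1 was 7.03-fold lower (2.81 to 20.9) at 1 ng/mL and 2.28-fold lower (1.14 to 4.75) at 5 ng/mL. BEAS-2B cells had 5.19-fold (2.28 to 13.8) and 3.55-fold (1.46 to 9.84) higher levels. The intervals of the lines were apart at both doses, although none of the 6 libraries reached the minimum level. Of the libraries next to each other in level, only BEAS-2B and A549 cells at 5 ng/mL differed beyond counting error (ratio interval 1.07 to 4.61).

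SNAI2 (Slug), its close relative, had 4, 15 and 8 counts in A549 cells and 10, 56 and 48 in BEAS-2B cells. The treated BEAS-2B libraries stood above the other 4. Their ratios to the control were 5.65 (2.86 to 12.4) and 5.42 (2.71 to 12), with no difference between the doses beyond counting error (0.960, interval 0.639 to 1.44). In A549 cells the ratios of 2.22 (0.708 to 9.21) and 1.57 (0.420 to 7.11) could not be separated from 1 at this depth. SNAI2 made up 13.8% (3.89% to 31.7%) of the SNAI counts in untreated A549 cells and 71.4% (47.8% to 88.7%) at 1 ng/mL, on 29 and 21 reads in all. At 5 ng/mL it was 36.4% (17.2% to 59.3%), which overlapped both. In BEAS-2B cells the share was 58.8%, 60.9% and 68.6%.

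TWIST1, a basic helix-loop-helix factor of mesenchyme, had 4, 8 and 6 counts in A549 cells and 40, 35 and 22 in BEAS-2B cells. Each BEAS-2B library was above each A549 library, and no step within a line exceeded counting error. In BEAS-2B cells the ratios were 0.883 (0.544 to 1.43) and 0.621 (0.352 to 1.07). The A549 ratios, 1.19 (0.318 to 5.38) and 1.18 (0.279 to 5.66), rest on few reads, and each turned below 1 in 1 of 9 alternatives.

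PRRX1, a homeobox factor of mesenchyme and fibroblasts, was found almost only in 1 library. It had 0, 37 and 6 counts in A549 cells and 0, 1 and 0 in BEAS-2B cells. The A549 level at 1 ng/mL was 7.31 times the floor of 3 counts in the untreated library; the exact lower limit of the ratio, which allows for the counting error of both libraries, makes it at least 5.66-fold higher. At 5 ng/mL that lower limit was 0.922, so 6 reads against 0 could not be separated from no difference. From 1 to 5 ng/mL it was 4.67-fold lower (1.95 to 13.5). The same A549 library at 1 ng/mL held more reads of the fibroblast markers: DCN had 2, 53 and 6 counts, COL1A2 had 5, 343 and 54, and LUM had 0, 15 and 9. All 6 listed fibroblast markers had their highest A549 level in CPM in that library, which was also the deepest. The margin was small for LUM (1.91 against 1.48 CPM at 5 ng/mL) and PDGFRA (2.81 against 1.93 CPM untreated), and no counting intervals are given for them. The sum of the markers was 4.58, 60.1 and 13.8 CPM in A549 cells and 306, 323 and 409 in BEAS-2B cells. Different genes carried these sums. COL1A2 gave 43.7 CPM in A549 cells at 1 ng/mL, and THY1 gave 273, 269 and 342 CPM in BEAS-2B cells. The part of the fibroblast markers in the PRRX1 counts was not tested.

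Between the doses no member was called in either line. Among all entries 1.61% were higher and 1.79% lower at 5 than at 1 ng/mL in A549 cells, and 0.492% and 0.412% in BEAS-2B cells. By the counting interval, ZEB1, SOX9 and SNAI1 were higher and HMGA1, HMGA2 and PRRX1 lower at 5 ng/mL in A549 cells (37.5% of all entries had an interval apart from 1). In BEAS-2B cells ZEB1 and SOX4 were higher and HMGA1 lower (29.7% of entries). HMGA1 had the largest step of these in BEAS-2B cells, with a ratio of 0.686 (0.641 to 0.734). ZEB1 was higher at 5 than at 1 ng/mL in both lines, 1.26-fold (1.09 to 1.47) in A549 and 1.36-fold (1.08 to 1.71) in BEAS-2B cells.

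Before treatment the lines differed in 3 called members. ZEB2 was 5.04-fold higher (3.39 to 7.72) in BEAS-2B than in A549 cells, and HMGA2 was 2.91-fold lower (2.16 to 3.97), while SOX4 was 2.31-fold lower (2.14 to 2.49). Of the 7329 entries compared, 18.9% were called higher and 18.1% lower in BEAS-2B cells, and 58.7% had a counting interval apart from 1. Below the minimum level, TWIST1 was 9.63-fold higher (3.48 to 37.1) and SNAI1 3.71-fold lower (1.56 to 10.2) in BEAS-2B cells. HMGA1 was 1.16-fold lower (1.08 to 1.24). ZEB1, SOX9 and SNAI2 could not be separated between the untreated lines, with a ZEB1 ratio of 0.956 (0.747 to 1.22).

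**Figure D4:**
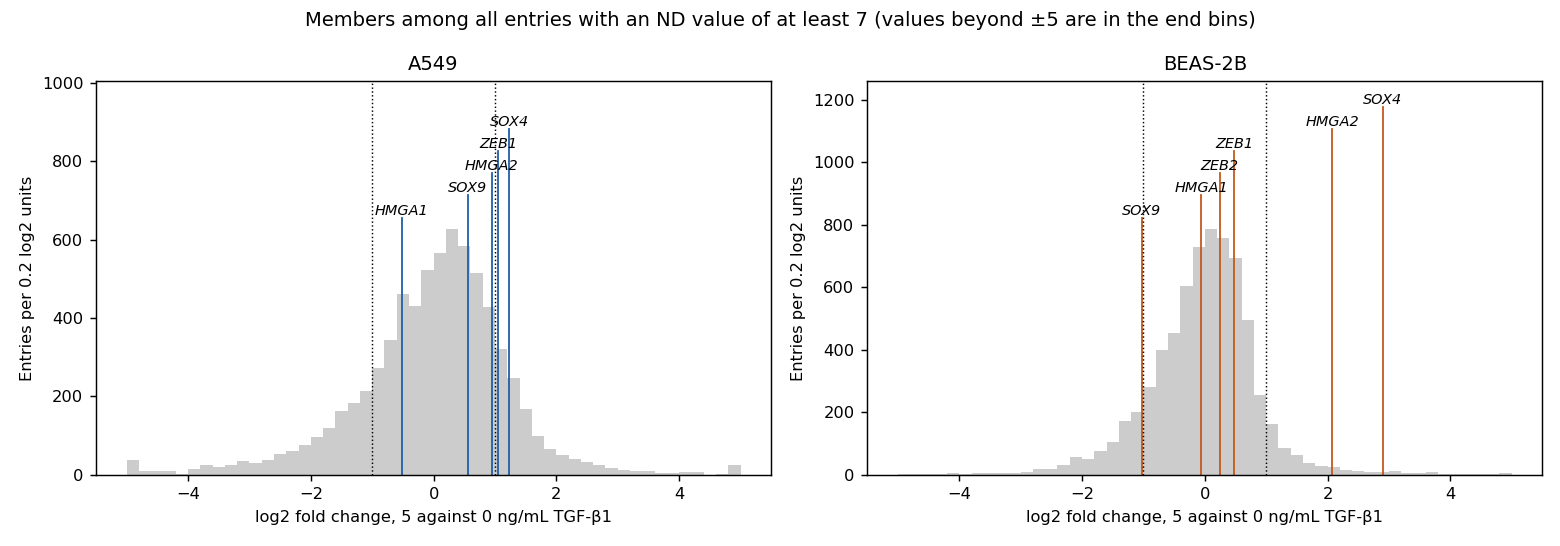
Number of entries by log2 FC at 5 against 0 ng/mL (grey bars, bins of 0.2) among the entries that reached an ND value of 7 in A549 (left) or BEAS-2B cells (right), with the members that reached this level as coloured lines and the FC limits dotted. SOX4 and HMGA2 lay in the upper tail in BEAS-2B cells, whereas the A549 members lay within the bulk of the entries or at its upper edge.

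The genes around these factors were taken from lists chosen with earlier results of the same data known. Among 12 other EMT transcription factors, 5 reached the minimum level in each line, and of these 1 was called higher and 1 lower at 5 ng/mL. Over all entries the shares were 16.1% and 17.1% in A549 and 7.33% and 11.6% in BEAS-2B cells, and counts this small cannot be set apart from them. TCF4, an E protein that pairs with TWIST1, rose 2.12-fold (1.70 to 2.66) in A549 and 2.89-fold (2.35 to 3.58) in BEAS-2B cells. FOXQ1, a forkhead factor, fell 9.29-fold (6.28 to 14.2) in A549 cells. The median log2 FC of the list was -0.13 in A549 and 0.10 in BEAS-2B cells, near that of all entries.

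Of 12 epithelial transcription factors, 3 reached the minimum level in A549 and 2 in BEAS-2B cells, and none was called higher. Called lower at 5 ng/mL were 2 and 1 of them, beside 17.1% and 11.6% of all entries. ELF3 fell in both lines, from 1146 to 425 and 117 counts in A549 cells and from 330 to 18 and 11 counts in BEAS-2B cells. Its fold at 5 ng/mL was 12.5 (10.3 to 15.3) and 26.6 (14.7 to 53.7) in the lower direction. FOXA2, a forkhead factor of lung epithelium, fell 2.26-fold (1.99 to 2.56) in A549 cells at 5 ng/mL and had 0 counts in untreated BEAS-2B cells.

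Among the 18 epithelial genes known as repressed by SNAI and ZEB proteins, 3 were called lower and 0 higher in each line at 5 ng/mL, of 5 and 4 that reached the minimum. Over all entries 17.1% (A549) and 11.6% (BEAS-2B) were called lower. In A549 cells CDH1 fell 102-fold (51.5 to 238), CLDN1 (a tight junction claudin) 4.81-fold (3.70 to 6.32) and JUP 3.74-fold (3.27 to 4.30). In BEAS-2B cells CLDN1 fell 5.06-fold (3.57 to 7.34), JUP 3.04-fold (2.16 to 4.35) and PKP3, a desmosomal plakophilin, 2.23-fold (1.64 to 3.06). The median log2 FC was -1.0 and -1.15. DSP, the desmosomal plakin of the same list, was not called, with ratios of 1.11 (1.04 to 1.19) and 1.84 (1.69 to 1.99); it is named after its values were seen. In the A549 libraries with the low CDH1 counts, SNAI1 was below its control, on 6 and 14 reads, and ZEB1 above it. The part of either factor in the CDH1 counts was not tested.

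Of 12 mesenchymal genes, 8 reached the minimum in A549 and 9 in BEAS-2B cells at 5 ng/mL. In A549 cells 6 were called higher and 1 lower, beside 16.1% and 17.1% of all entries. In BEAS-2B cells 7 were called higher and 0 lower, beside 7.33% and 11.6%. MMP2, a gelatinase, rose 73.8-fold (38.7 to 162) and 12.8-fold (11 to 15), and COL1A1, a chain of collagen I, rose 20.3-fold (16.4 to 25.4) and 11.5-fold (11.1 to 12). FN1 (fibronectin) rose 15.6-fold (15.3 to 15.9) in BEAS-2B cells. S100A4, a calcium-binding protein, fell 3.17-fold (2.98 to 3.38) in A549 cells, and is likewise named after its value was seen. The list median was 2.50 in A549 and 1.91 in BEAS-2B cells on the log2 scale.

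The 15 corepressors and chromatin partners that SNAI and ZEB proteins recruit had 0 called higher and 2 lower in A549 cells, and 0 and 4 in BEAS-2B cells, at 5 ng/mL, of 14 that reached the minimum in each line. The A549 count is near the share of all entries called lower (17.1%), and the share in BEAS-2B cells was 11.6%. EED, a subunit of Polycomb complex PRC2, fell in both, 2.94-fold (2.27 to 3.82) and 2.86-fold (2.20 to 3.74), while its partners EZH2 and SUZ12 were not called, with A549 ratios of 1.5 (1.30 to 1.73) and 1.26 (1.10 to 1.43). AJUBA, a LIM protein that binds SNAI1, fell 6.70-fold (4.76 to 9.65) in A549 cells. The others lower in BEAS-2B cells were DNMT1 at 2.39-fold (2.17 to 2.64), CTBP1 at 2.38-fold (2.05 to 2.79) and LOXL2 at 2.05-fold (1.90 to 2.21). The list medians, 0.33 and 0.15, were nonetheless above 0. Before treatment SMARCA4, a chromatin remodelling ATPase, had 102 counts in A549 and 1419 in BEAS-2B cells (13.4-fold higher, 11 to 16.5); it is named after its value was seen.

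Kinases, E3 ligase subunits and deubiquitinases that set the stability of SNAI1 protein numbered 11, of which 8 reached the minimum in A549 and 7 in BEAS-2B cells. Of these USP27X, a deubiquitinase, rose 2.23-fold (1.61 to 3.13) and FBXO45, an E3 ligase subunit, fell 2.02-fold (1.54 to 2.66) in A549 cells at 5 ng/mL, and none was called in BEAS-2B cells. A count of 1 in 8 in a direction is near the A549 shares over all entries (16.1% higher and 17.1% lower). The let-7 and HMGA2 axis, 9 genes that include the IGF2BP RNA-binding proteins, had none called in A549 cells. In BEAS-2B cells 1 of 5 that reached the minimum was lower, RRM2 (a ribonucleotide reductase subunit) at 2.07-fold (1.90 to 2.26). The share called lower over all BEAS-2B entries was 11.6%. LIN28B, which blocks let-7 processing, had 34, 20 and 12 counts in A549 cells and 0 in each BEAS-2B library; it is likewise named after its values were seen.

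**Figure D5:**
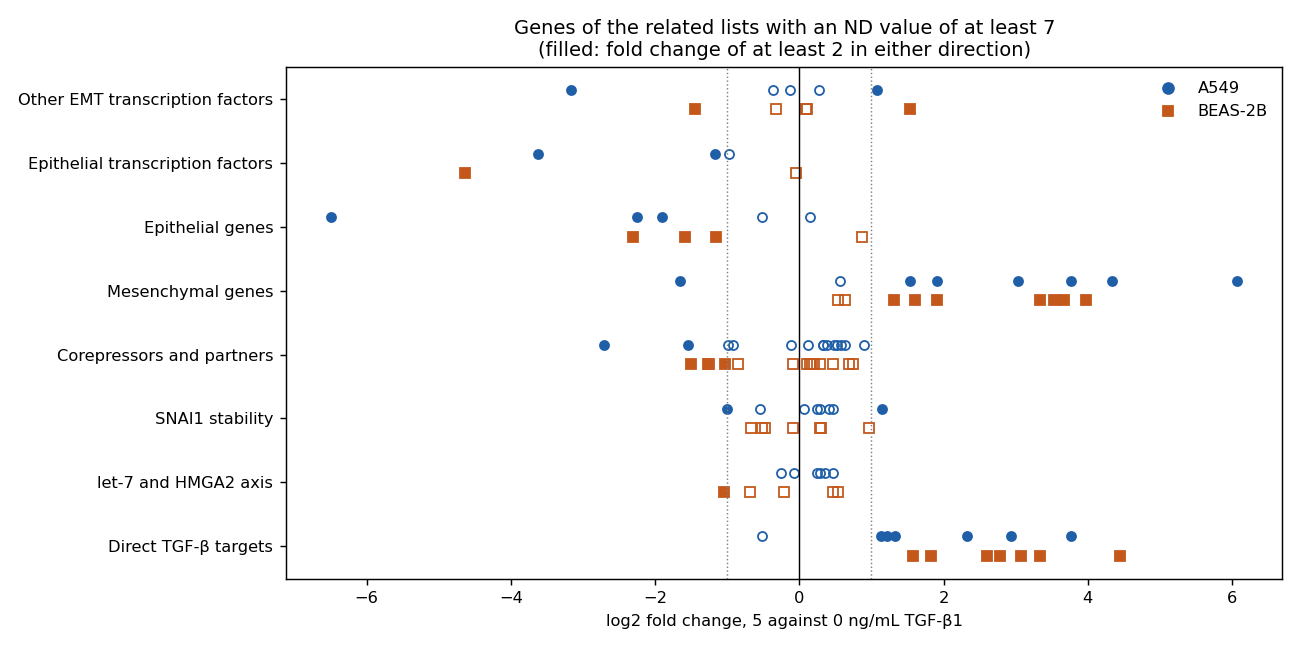
log2 FC at 5 against 0 ng/mL (horizontal axis) of the listed genes with an ND value of at least 7, by list, in A549 (circles) and BEAS-2B cells (squares), filled where the FC was at least 2 in either direction. Called epithelial genes lay on the lower side in both lines, and the called mesenchymal genes on the higher side with the exception of S100A4 in A549 cells.

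Genes with the most similar pattern over the 6 libraries were sought among 8159 entries, as the smallest root mean square difference of mean-centred ND values. ZEB1 was nearest to RAB34 (0.077) and CD81 (0.079), ZEB2 to PNPLA3 (0.090) and ZHX3 (0.126), and HMGA1 to ABCE1 (0.072) and UQCR10 (0.096). SOX9 was nearest to NMI (0.131) and FADD (0.146), and HMGA2 to RRP12 (0.210) and FKBP10 (0.211). SOX4 had the most distant neighbours, PDGFA (0.300), a growth factor chain with 303, 715 and 851 counts in A549 and 140, 636 and 674 in BEAS-2B cells, and SYNE1 (0.334). The values compare 6 single libraries and carry no test.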

How the data were processed

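QuantSeq 3′ end libraries of A549 and BEAS-2B cells (0, 1 and 5 ng/mL TGF-β1, 6 libraries) were used. The authors deposited whole-number read counts for each symbol, not normalized. The submitters' processing notes name Bowtie2, bedtools and hg19; the annotation and strand setting are not given in the sources used here, and the study's methods name ExDEGA for the analysis. Samples were grouped by the treatment and cell line labels.

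Counts were scaled by TMM over all 6 libraries (edgeR 4.0.16, R 4.3.3) and compared in Python 3.11.15 (scipy 1.17.1). A gene was called at an FC of at least 2, with a pseudocount of 1, and an ND value of at least 7 in at least 1 library. Printed ratios carry no pseudocount, and their intervals are exact Clopper-Pearson intervals (95%). A floor of 3 counts stood in for a count of 0 only in bounds and in the level that a count of 0 allows. Calls, log2 FCs and exact intervals used the count of 0 itself. With 1 library per condition no test was made. The calling and interval steps were tested on simulated Poisson counts, with the scaling taken as known and changes set only in genes with high counts. That test did not cover changed genes with few counts, changes near the FC limit or spread between cultures.

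All members are named; from the lists, up to 4 called genes per line with the largest FC at 5 ng/mL (some are not reported here); for each member reaching the minimum, its 2 nearest genes. Members and lists were chosen with earlier results of these data known. List medians use entries with a mean normalized count of at least 20. Alternatives covered scaling (including DESeq2 1.42.0 size factors), pseudocount, minimum level, FC limit and GC content. The reference was GRCh38, so no hg19 gene coordinates are given.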

Additional observations from a re-analysis of the deposited data

Results flagged for a closer look

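For 3 members every treated A549 library lay on the other side of its control than every treated BEAS-2B library. The difference between the lines was not tested, as each condition has 1 library, and both doses of a line share a control.

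The log2 fold change of SNAI1 was -2.55 (1 ng/mL) and -1.13 (5 ng/mL) in A549 cells, and 2.24 and 1.70 in BEAS-2B cells. The counting intervals of the lines were apart at both doses, on 6 to 36 reads a library.

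For SOX9 the values were 0.11 and 0.56 in A549 cells and -1.28 and -1.03 in BEAS-2B cells. The A549 value at 1 ng/mL was -0.06 when libraries were scaled by total counts.

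For TWIST1 they were 0.21 and 0.19 in A549 cells and -0.18 and -0.67 in BEAS-2B cells. All 4 counting intervals included 1, and the A549 values were as low as -0.07 and -0.21 in 1 alternative each.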

How the results depend on the processing

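No paired analysis was possible because each condition has 1 library and the labels give no replicate numbers. Of 620 recomputed log2 fold changes of single members, 607 stayed within the counting interval, 13 moved beyond it (HMGA1 and SOX4) and 0 called values changed sign. Some values that were not called did change sign. In A549 cells these included TWIST1 between the doses, in 4 of 9 alternatives, and ZEB2 at 5 ng/mL against the control, in 3 of 9. Staying within the interval is a weak condition for members with few reads, whose intervals are wide. With no minimum level, members called at 1 and 5 ng/mL were 5 and 4 for A549, 6 and 5 for BEAS-2B, 2 and 1 between the doses, and 6 between untreated lines. An ND value from log2(CPM + 1) gave 1 in each of the 4 comparisons with a control and 1 between untreated lines. An FC limit of 3 left 0 in A549 cells at either dose and 1 between untreated lines. Requiring the minimum in both libraries left 1 for BEAS-2B at the low dose and 1 between untreated lines, and scaling by total counts left 1 in A549 cells at 5 ng/mL. By construction, fewer or more members reach the limits where the minimum level or the FC limit is changed. The A549 call lost with total counts was ZEB1, at a log2 fold change of 0.85 in place of 1.05. Total counts moved the median log2 fold change of all entries by -0.16 (1 ng/mL) and -0.20 (5 ng/mL) in A549 cells and by -0.13 in BEAS-2B cells at both. Counts of intervals apart from 1 stayed within 1.5 times their value under the 5 scalings tried. Depth limits SNAI1, SNAI2, TWIST1 and PRRX1 most, with at most 56 reads.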
